A study of Mus musculus with 4 samples.

Results

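CC chemokines of mouse peritoneal exudate cells were compared between Cebpe-deficient and wild-type mice. Cebpe encodes C/EBPε, a DNA-binding protein that neutrophils need for the last steps of their maturation. The 7 genes were Ccl2, Ccl7, Ccl12, Ccl3, Ccl4, Ccl6 and Ccl9, out of 6137 genes named on the arrays. A probe set was taken for one of them where the platform annotation gave it exactly 1 gene symbol and that symbol was the gene's, which left 8 of 13069 probe sets. The genes had been proposed from their Cebpe-deficient to wild-type signal in these same arrays, so their differences are a description and were not tested.

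The Cebpe-deficient (-/-) and the wild-type (+/+) mice, 4 of each genotype, had the mixed 129/SvEv x NIH Black Swiss background, were 6 to 8 weeks old and received the same 2 ml of 4% thioglycollate broth into the peritoneal cavity, a sterile irritant that draws in neutrophils and then monocytes. Cells were washed out 24 h later, and total RNA of each genotype was hybridised to 1 Affymetrix array of type A and 1 of type B, 4 arrays in all. Per the labels, counts of 100 to 200 cells on cytospins gave, in each genotype, 60% neutrophils, close to 30% monocytes and 7 to 10% lymphocytes. The labels speak of combining cells and break off there, so how mice were pooled is not given in the sources used here. No untreated mice were analysed here, so each level is that of an inflamed cavity. With 1 array per genotype and type, no difference has a replicate check and no p-value is given. The Cebpe deletion itself was not checked, since 0 probe sets are annotated with Cebpe.

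Chemokines are small secreted proteins that guide leukocytes through G protein-coupled receptors, and the CC family is named for a pair of adjacent cysteines. Ccl2, Ccl7 and Ccl12 act on the receptor Ccr2 and draw monocytes out of the bone marrow and into tissue. Ccl3 and Ccl4 are the macrophage inflammatory proteins, which activated macrophages secrete, and Ccl3 acts on Ccr1. Ccl6 and Ccl9 act on Ccr1 and are made by myeloid cells without stimulation.

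All 7 genes lie on mouse chromosome 11 (RefSeq, assembly GRCm38.p6). In the order of protein-coding genes Ccl2 and Ccl7 stand side by side, followed by Ccl11, Ccl12, Ccl8 and Ccl1. Ccl5, Ccl9, Ccl6, Ccl3 and Ccl4 form a second run, and 29 genes that are not among the 7 lie between Ccl2 and Ccl4. The annotated spans of Ccl3 and Ccl4 overlap. RefSeq's promoter table held 4 of the 7 genes, and the 250 bases before the start of each are shown. It had no entry for Ccl2, Ccl7 and Ccl4, so Ccl2 and Ccl7, which differed most between the genotypes, have no sequence here. Of those shown, Ccl6 and Ccl9 are neighbours with like differences between the genotypes. Capitals mark matches to any of 5 motifs.
Ccl12 promoter, chr11:82101595-82101844, plus strand: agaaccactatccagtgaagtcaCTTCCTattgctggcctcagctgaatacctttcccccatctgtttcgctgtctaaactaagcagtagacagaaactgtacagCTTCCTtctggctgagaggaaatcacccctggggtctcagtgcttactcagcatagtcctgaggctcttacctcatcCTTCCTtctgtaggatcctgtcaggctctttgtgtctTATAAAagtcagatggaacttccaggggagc
Ccl3 promoter, chr11:83649379-83649628, minus strand: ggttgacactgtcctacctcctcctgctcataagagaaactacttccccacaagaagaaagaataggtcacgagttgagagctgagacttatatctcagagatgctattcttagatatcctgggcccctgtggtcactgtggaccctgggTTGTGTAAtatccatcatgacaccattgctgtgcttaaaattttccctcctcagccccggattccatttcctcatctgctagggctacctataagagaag
Ccl6 promoter, chr11:83593088-83593337, minus strand: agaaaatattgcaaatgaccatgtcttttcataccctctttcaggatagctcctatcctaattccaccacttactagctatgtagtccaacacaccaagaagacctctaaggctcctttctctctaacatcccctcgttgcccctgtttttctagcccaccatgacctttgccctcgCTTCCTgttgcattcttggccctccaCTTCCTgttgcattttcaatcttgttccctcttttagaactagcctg
Ccl9 promoter, chr11:83578637-83578886, minus strand: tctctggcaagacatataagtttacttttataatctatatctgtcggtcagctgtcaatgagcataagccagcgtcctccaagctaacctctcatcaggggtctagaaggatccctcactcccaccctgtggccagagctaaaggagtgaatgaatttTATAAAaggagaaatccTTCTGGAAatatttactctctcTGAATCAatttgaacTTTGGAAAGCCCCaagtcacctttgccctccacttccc

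The motifs searched on both strands were TGANTCA for AP-1, TTNNGNAA for C/EBP, AGGAAG for ETS factors, and the NF-kB motif, and TATAAA was searched on the gene's strand. Of the same windows of 32851 promoters, 6.75% held the AP-1 motif, 36.8% the C/EBP motif, 29.5% the ETS motif, 7.25% the NF-kB motif and 7.59% the TATA motif. The Ccl9 window held 1 AP-1 match, 2 C/EBP matches, 1 NF-kB match and 1 TATA match, the NF-kB match overlapping the C/EBP match nearer the start. The Ccl6 window held 2 ETS matches and no other. Both lay in copies of cttcctgttgcatt, a run of 14 bases that occurs at 73 and again at 47 bases before the start. A repeat at least that long was in 3.30% of all windows. The Ccl3 window held 1 C/EBP match, and that of Ccl12 held 3 ETS matches and a TATA match 31 bases before the start. Letters that match a motif are a description and not a binding site.

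Signals are deposited linear intensities, 1 per probe set, of which 20.6% to 29.3% per array were below 0. The arrays of a type were brought to a common trimmed mean, and a probe set had a log2 ratio, deficient over wild-type, where both arrays lay above a floor set at the median signal (1036.5 on A, 690.17 on B). Where only 1 array lay above the floor, the fold against the floor is a bound, written as at least. The measurement error of 1 ratio, taken from genes with repeat probe sets, was an SD of 0.45 log2 units where the geometric mean of both signals was below 3 times the floor and 0.33 above, which holds no spread between mice. Of 3132 genes with a ratio, 115 (3.67%) were lower by 2-fold or more in deficient cells and 95 (3.03%) were higher. By probe set, 3.15% of 2949 on A and 3.76% of 2954 on B were lower, and 2.54% and 4.23% were higher. Of those past 2-fold, 44.6% on A and 53.0% on B were higher, against 54.9% and 34.4% with equal medians and 73.7% and 85.9% with scaling to the bacterial controls, which put the median log2 ratio of all probe sets at 0.21 on A and 0.36 on B.

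All 7 chemokine genes had a ratio, and all 7 read lower in Cebpe-deficient cells. Their median log2 ratio was -0.87, whereas 49.1% of all genes were below 0 (median 0.0095). Ccl7 and Ccl2 were lower by 2-fold or more, which is 2 of 7 beside the 3.67% of all genes, and 0 of 7 were higher by that much. With bounds counted as well, 4.56% of 3749 genes were lower by 2-fold or more and 4.16% were higher. As these values chose the genes, nothing is read from the count. In such bulk RNA, fewer cells of a type and less RNA per cell cannot be told apart.

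**Figure D1:**
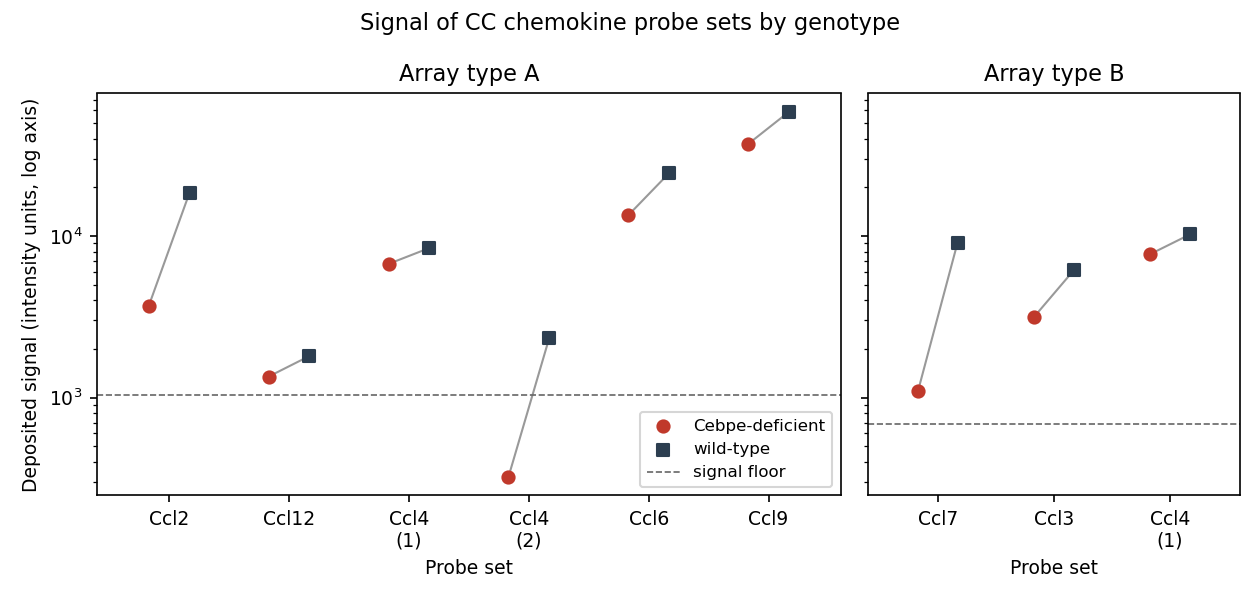
Deposited signal (intensity units, log axis) of each CC chemokine probe set on array types A and B, Cebpe-deficient to the left of wild-type. Ccl4 (1) is the probe set found on both types, Ccl4 (2) the second one on A, and the dashed line is the signal floor. Each deficient point lies below its wild-type point, from Ccl9 at 37151 against 58791 to Ccl4 (2) at 322 against 2332.

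Among the monocyte attractants, Ccl7, first known as monocyte chemotactic protein 3, had a signal of 1099 in deficient cells and 9072 in wild-type cells on array type B. Its log2 ratio was -3.05 (measurement SD 0.33), 8.27-fold lower, and 0 of the 3132 genes with a ratio were lower. The deficient reading was only 1.59 times the floor, so the ratio rests on a dim signal in that genotype, and the SD, set by the mean of both signals, may be too small for it. With a floor at the 70th percentile it was below the floor and gave a log2 bound of -2.15.

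Ccl2, monocyte chemotactic protein 1, read 3691 in deficient cells and 18522 in wild-type cells on array type A. This was 5.02-fold lower (log2 ratio -2.33, measurement SD 0.33), and 7 genes had a lower ratio. Both readings were clear of the floor, at 3.56 and 17.9 times it, and the ratio stayed between -2.36 and -2.12 under the 8 alternatives that gave a value.

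Ccl12, the mouse monocyte chemotactic protein 5, was dim in both genotypes. It read 1349 in deficient and 1808 in wild-type cells on A, 1.30 and 1.74 times the floor. The log2 ratio of -0.42 was smaller than the measurement SD of 0.45 that holds for signals this dim. Of all genes with a ratio 18.0% were lower than Ccl12. The 3 ligands of Ccr2 spanned log2 ratios from -3.05 to -0.42, and Ccl12 lies in the same run of genes as Ccl2 and Ccl7. With a wild-type signal 1.74 times the floor, Ccl12 could read at most 1.74-fold lower. A fall as large as that of Ccl2 or Ccl7 could not have been read, so some gap to them was given in advance.

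Ccl3, macrophage inflammatory protein 1 alpha, read 3163 in deficient cells and 6130 in wild-type cells on B. Its log2 ratio was -0.96 (measurement SD 0.33), 51.5% of the wild-type signal and just short of 2-fold. Of the 3132 genes 121 were lower. The ratio was -1.13 with equal medians and -0.61 with bacterial-control scaling, so its side of 2-fold depends on the scaling.

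Ccl4, macrophage inflammatory protein 1 beta, could be read on more than 1 pair of arrays. One probe set ID was on both array types. On A it read 6719 in deficient and 8428 in wild-type cells, a log2 ratio of -0.33 with a measurement SD of 0.33. On B, where the annotation table gives that ID no symbol, it read 7731 in deficient and 10223 in wild-type cells, a log2 ratio of -0.41. Both pairs put the deficient signal lower by a similar amount, 79.7% of wild-type on A and 75.5% on B. The second Ccl4 probe set on A read 322 in deficient cells, below the floor, and 2332 in wild-type cells, which is at least 2.25-fold lower. The probe sets of Ccl4 therefore agree in sign and not in size, and with a floor at the 30th percentile the second one had a log2 ratio of -2.86. Besides those named as controls, 21 probe set IDs were on both types, yeast sequences among them, and 9 had a ratio on both. Their log2 ratios differed between types by 0.0059 to 0.56 (median 0.29), and 5 of 9 had the same sign. The 9 include probe sets without a gene symbol, and some of these changed sign, as did the genes Selp and Tnf. A difference as small as that of Ccl4 thus did not always keep its sign from one type to the other. Whether both types received the same RNA is not stated.

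Ccl6 and Ccl9, which are made without stimulation, were well above the floor in both genotypes. Ccl6 read 13454 in deficient and 24520 in wild-type cells, a log2 ratio of -0.87 (measurement SD 0.33), 54.8% of wild-type. Ccl9 read 37151 in deficient and 58791 in wild-type cells, a log2 ratio of -0.66 (measurement SD 0.33), 63.2% of wild-type. At 35.8 and 56.7 times the floor Ccl9 was far from the dim range. The ratios of these neighbours differed by 0.20, less than the SD of such a difference (0.47).

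**Figure D2:**
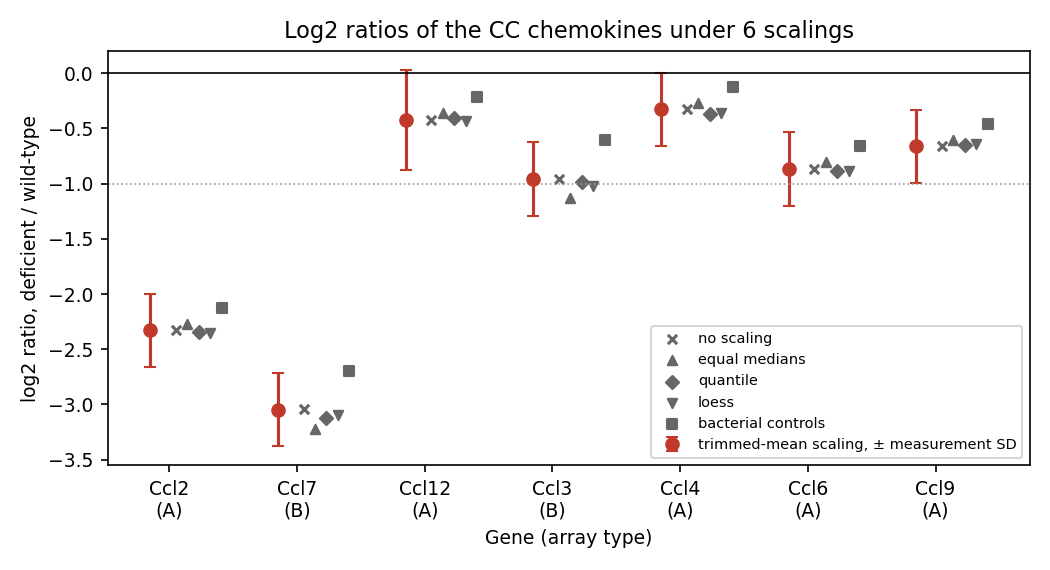
Log2 ratio, deficient over wild-type, of each gene (array type in brackets). Circles with bars are trimmed-mean scaling ± the measurement SD, grey marks the other 5 scalings, and the dotted line marks 2-fold lower. Ccl7 and Ccl2 lie below -2 under each scaling, and squares (bacterial controls) lie highest, with Ccl4 at -0.12.

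Ccl2 and Ccl7, the genes with the lowest ratios, were set beside the other 5 as a description, since their place in the order had singled them out. In each of the 10 pairs that set Ccl2 or Ccl7 against one of the other 5 genes, the log2 ratios differed by 1.37 to 2.72. Within array type A alone, the log2 ratio of Ccl2 minus that of Ccl6 was -1.46, minus that of Ccl9 -1.66 and minus that of Ccl12 -1.90. Ccl12 could read at most 1.74-fold lower, given its wild-type signal and the floor. Its gaps to Ccl2 and Ccl7 and its place in the order are limited by this. Within B, the ratio of Ccl7 minus that of Ccl3 was -2.09. Ccl2 and Ccl7 themselves differed by 0.72 across types (SD 0.47). Among the other 5 the differences were 0.09 to 0.63, and 2 of 10 exceeded 1 SD. In order from the lowest ratio the genes were Ccl7, Ccl2, Ccl3, Ccl6, Ccl9, Ccl12 and Ccl4, and from Ccl3 on no neighbours differed by more than the SD. The place of Ccl4, and its gap to Ccl2 and Ccl7, depend on the probe set: the second one had a bound of -1.17, and its ratio of -2.86 with the lower floor was below that of Ccl2. Measured against the median of all probe sets of their type, Ccl4 stood at -0.35 with trimmed-mean and -0.34 with bacterial-control scaling. Ccl7 stood at -3.07 and -3.05 in that order. Each of these scalings multiplies an array by a single factor, which such a difference all but cancels, so the values are no check on the scaling.

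**Figure D3:**
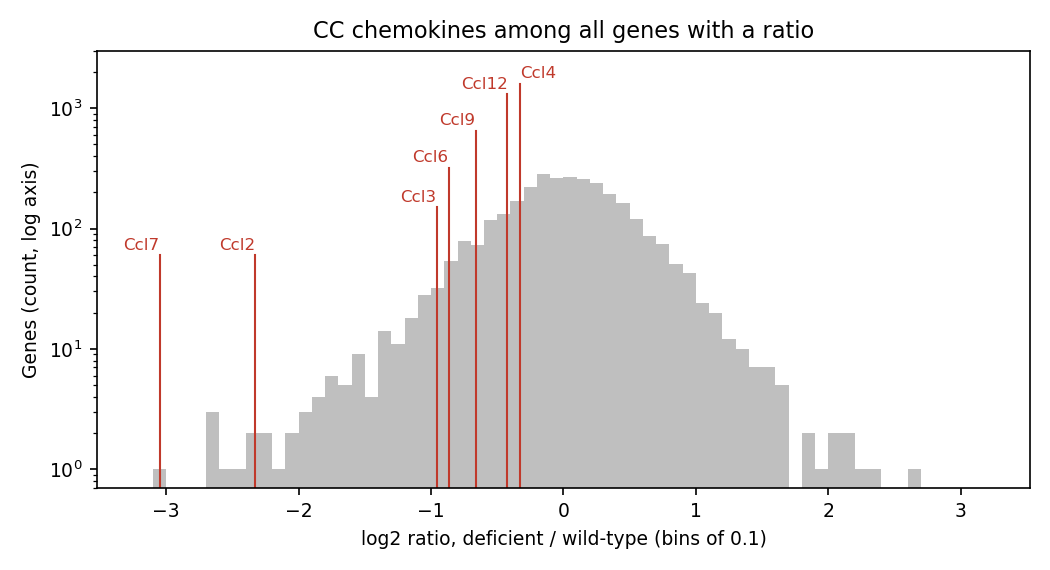
Number of genes (log axis) by log2 ratio, deficient over wild-type, for the 3132 genes with a ratio, with the 7 CC chemokines marked in red. Ccl7 and Ccl2 lie in the lower tail, where 0 and 7 genes are lower, and Ccl12 and Ccl4 lie where 18.0% and 23.1% of genes are lower.

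Genes whose signals on the 2 arrays of a type were nearest to those of a member were found by Euclidean distance on the log2 scale, which over 2 arrays is a weak measure of likeness. Nearest to Ccl7 was Ctse, the aspartic protease cathepsin E, at 1299 in deficient and 8417 in wild-type cells (distance 0.26). It was followed by Acod1, which makes itaconate in activated macrophages, at 0.55 and the neutrophil attractant Cxcl2 at 0.64. For Ccl2 the nearest were the scavenger receptor gene Msr1 at 0.66, the membrane protease gene Adam8 at 0.73 and the tubulin gene Tubb4b at 0.78, and no other member's nearest gene was as far off. That Msr1 probe set had a log2 ratio of -1.58, against -0.87 for a brighter Msr1 probe set. Cd5l, a secreted macrophage protein, was nearest to Ccl6 at 0.14, with 13828 in deficient and 22316 in wild-type cells. Marcksl1 and the ribosomal gene Rpsa followed at 0.15 and 0.21. Ccl9 had the ribosomal gene Rps18 at 0.094, then Wdr92 and Fxyd5 at 0.28 and 0.31. Ccl3 had Ranbp1 at 0.056, Vps4a and Pa2g4, Ccl12 had Yars at 0.047, Tarbp2 and Commd6, and Ccl4 had Znfx1 at 0.015, Adam15 and Ndufb2, none of these beyond 0.15.

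Of 13 other CC chemokines 5 had a named probe set and 0 had a ratio. Ccl1, a T cell product that lies in the run of Ccl2, was above the floor only in deficient cells, at 1632 against 598 in wild-type cells, at least 2.36-fold higher. Its probe set on A was below the floor in both genotypes (-221 in deficient and -921 in wild-type cells). Ccl11, an eosinophil attractant between Ccl7 and Ccl12, read -40 in deficient and -45 in wild-type cells, and Ccl5, next to Ccl9, read -589 and -32, each below the floor. Just past Ccl4, the whey acidic protein family gene Wfdc18 was 2352 in deficient and 5172 in wild-type cells (log2 ratio -1.14) and Wfdc21 was 14685 and 9699 (0.60), so the genes beside the second run went both ways. These neighbours were chosen by position. Of the chemokines of other families, 8 of 16 had a named probe set and 2 a ratio. Cxcl2 was at -2.14, with 1537 in deficient and 6769 in wild-type cells, and Cxcl10, an interferon-induced T cell attractant named here after its value was seen, at -0.73.

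The receptors went both ways. Of 15 genes for CC receptors, 8 had a named probe set and 5 a ratio, 2 of them lower by 2-fold or more and 1 higher. Ccr2, the receptor of the ligands that differed most, read 21898 in deficient and 11204 in wild-type cells, 1.95-fold higher (log2 ratio 0.97, measurement SD 0.33), and so stood opposite to Ccl2 and Ccl7. It is named here for its ligands. Ccr1, on which Ccl3, Ccl6 and Ccl9 act, was 2.64-fold lower, with 3645 in deficient and 9588 in wild-type cells. Ccr3, the eotaxin receptor, to which human CCL7 also binds, read 936 in deficient and 3539 in wild-type cells, 3.79-fold lower. Ccrl2, an atypical receptor that presents chemerin, read 2638 in deficient and 1167 in wild-type cells, 2.26-fold higher. Ccr1l1, a relative of Ccr1, stood at 0.93, and the median of the 5 was 0.93, or 0.011 with 3 bounded genes. That median was -0.22 with a floor at the 70th percentile, so the list has no settled direction.

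**Figure D4:**
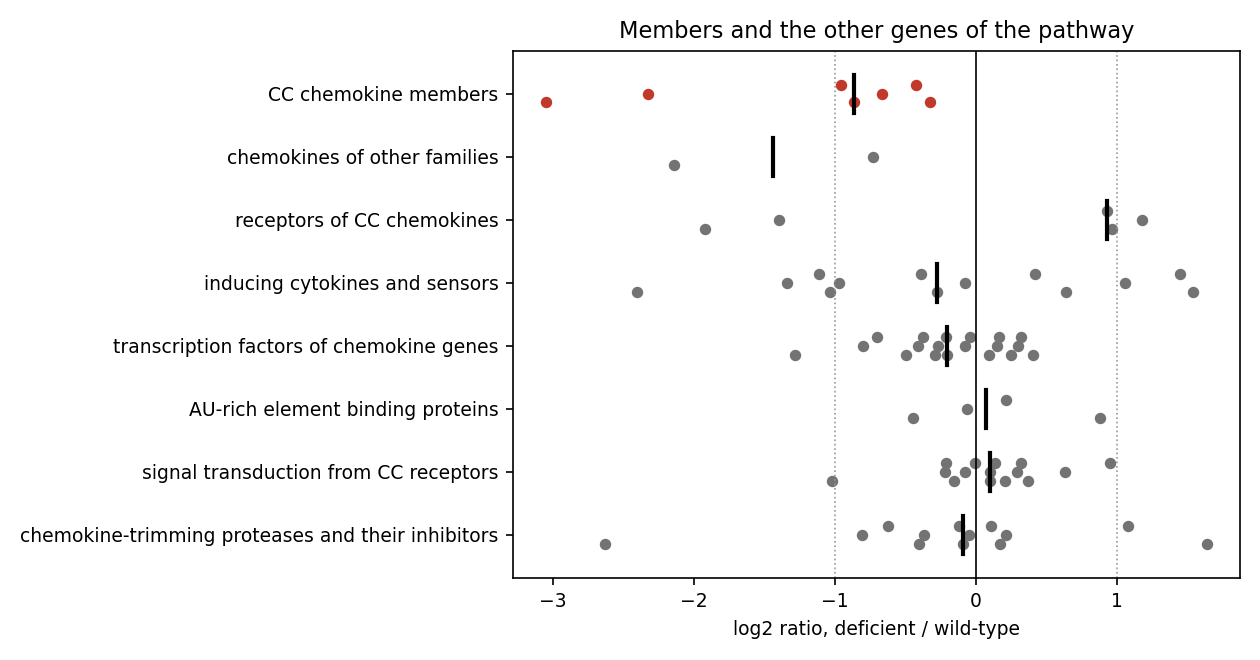
Log2 ratio, deficient over wild-type, of each gene with a ratio, for the 7 CC chemokines (red) and 7 lists of other genes of the pathway (grey), with black bars at the medians and dotted lines at 2-fold. The 7 members lie left of 0, while the receptors split between -1.92 and 1.18.

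Cytokines and sensors that induce chemokine genes had a median of -0.28 (8 of 13 below 0), which was 0.15 without suffixed probe sets, with 4 lower and 3 higher by 2-fold or more and 1 more lower by its bound. Il1b, the interleukin 1 beta gene, was 2.16-fold lower, with 5413 in deficient and 11705 in wild-type cells. Its decoy receptor Il1r2 and its antagonist Il1rn were 5.29-fold and 2.53-fold lower, and the lipopolysaccharide co-receptor Cd14, named beyond the rule after its value was seen, was 2.04-fold lower. Csf1, on which macrophages depend for growth, read 506 in deficient and 3080 in wild-type cells, at least 2.97-fold lower. Tnfrsf1b, a receptor of TNF, Ifngr1, a chain of the interferon gamma receptor, and Il10ra, a chain of the interleukin 10 receptor, were 2.91-fold, 2.73-fold and 2.08-fold higher. Receptors of the list stood on both sides, Il1r2 and Cd14 lower and these 3 higher.

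Of 19 measured transcription factors of chemokine genes, 12 were below 0, with a median of -0.20 that became 0.14 with bacterial-control scaling. Bcl3, an atypical member of the I-kappa-B family, was 2.44-fold lower with 2150 in deficient and 5227 in wild-type cells, and Fosl2, a part of AP-1, was at least 6.23-fold lower. The other 18 with a ratio lay between -0.80 and 0.41. Signal carriers behind the receptors had a median of 0.10 over 15 genes. Plcb3, a phospholipase C, was 2.03-fold lower and the other 14 stood between -0.22 and 0.95. The RNA-binding proteins of AU-rich elements, which control the decay of cytokine messages, had 4 measured genes, none past 2-fold, with a median of 0.075. Proteases that trim chemokines, and their inhibitors, had a median of -0.092 over 13 genes, or 0.23 with bacterial-control scaling. Timp1 was 6.19-fold lower, Timp2 was 3.11-fold higher, and the membrane-bound metalloproteinase gene Mmp14 was 2.12-fold higher.

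Markers of cell types were read beside the chemokines, and Ccr2, Cd14, Il1r2 and Ccr3 are also among them. Of 15 measured monocyte and macrophage markers 9 were below 0, with a median of -0.43. Their ratios ran from -2.30 for Mrc1 to 2.21 for Apoe, with 2 lower and 1 higher by 2-fold or more. Their summed signal was 202448 in deficient and 199711 in wild-type cells on A and 301807 and 326179 on B. The sums on B include Apoe at 38567 in deficient and 8292 in wild-type cells, so their closeness leans on that gene. Neutrophil markers were below 0 in 9 of 11 cases (median -0.52), with sums of 106279 in deficient and 135846 in wild-type cells on A and 99191 and 129740 on B. Their ratios were uneven, with 4 lower by 2-fold or more, while S100a8, S100a9 and Itgb2, named after their values were seen, stood at -0.079, -0.24 and -0.15. Whether these markers follow the number of neutrophils or their maturation was not tested. Resident peritoneal macrophage markers were below 0 in 7 of 7 cases (median -0.73), with sums of 18417 in deficient and 30140 in wild-type cells on A and 18749 and 35258 on B. Of these, Tgfb2 at -0.083 lay within its measurement SD of 0.45. Selp was at -0.43 and -0.55 by its probe sets on A, and at 0.018 on B by an ID found on both types. Mesothelial and fibroblast markers were below 0 in 5 of 5 measured of 13 (median -0.57), with sums of 2074 in deficient and 2365 in wild-type cells on A and 7306 and 15721 on B, and the mesothelial markers Msln and Upk3b were below the floor in both genotypes. Of the eosinophil markers Prg2, Epx and Il5ra were below the floor in both genotypes, and Ccr3 was the marker measured. B cell markers had a median of -0.11 over 5 genes, mast cell and basophil markers -0.14 over 5, and erythroid markers 0.036 over 3, or -0.79 with bounds, and 1 T and NK cell marker was measured, at -0.66. Among the erythroid markers, the globin gene Hbb-b2 was 3.08-fold lower and Alas2, an enzyme of haem synthesis, at least 6.92-fold lower, both named after their values were seen. The others with a ratio, Hba-a1 and Slc4a1, stood at 0.036 and 0.34, and at -0.46 and -0.063 by a second probe set each. The part that any of these cells had in the chemokine signals was not tested.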

How the data were processed

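The values the authors deposited are linear intensities, which from the values themselves are whole numbers, 1 per probe set. How they were made (software, background, scaling) is not given in the sources used here. Groups came from the sample titles. The title of the deficient array of type B names the deficiency, and its RNA source description does not. Of 7561 probe sets with 1 gene symbol, 7544 matched a gene ID of the RefSeq table, and those with no symbol or more than 1 stayed unnamed. Of the 7 chemokines, 6 were read by probe sets of suffix _s, whose probes may match more than 1 transcript in the manufacturer's naming.

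Arrays of a type were scaled to a common trimmed mean (2% off each end, controls left out, factors 0.999 to 1.001). Where several probe sets stood for a gene, the measured one brightest relative to the floor was used. By rule, named genes were the 7 chemokines, up to 4 genes each way past 2-fold in each of 8 pathway lists and the 3 nearest genes of each member. Genes outside this rule were also named, among them chromosome neighbours, cell type markers, Ccr2, Ccr1l1 and Cxcl10. Some of them were picked after their values were seen. The members and lists were chosen with earlier results of these data known. Lists are described by counts and medians, with no set test, and no result was tested because each genotype had 1 array of each type. The number of arrays limits the precision. The procedure was tested on simulated arrays, where planted changes were checked only for probe sets far above the floor. Ratios of dimmer probe sets and bounds were not tested in this way. The software was pandas 2.3.3 and numpy 2.4.6 under Python 3.11.15, with statsmodels 0.14.6 for loess and matplotlib 3.10.9 for plots.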

Additional observations from a re-analysis of the deposited data

How the results depend on the processing

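All 7 chemokines kept log2 ratios below 0 under each alternative that gave a value: bacterial-control, quantile, loess (span 0.3), equal-median or no scaling, the mean over probe sets, and floors at the 30th and 70th percentile. Without suffixed probe sets a ratio remained for Ccl4 only. At the 70th percentile Ccl12 was below the floor in both genotypes, Ccl7 had a log2 bound of -2.15, and 1 member in place of 2 was lower by 2-fold by a ratio (Ccl7 being past it by its bound), against 0 without suffixed probe sets. Those alternatives leave fewer probe sets. No paired analysis was possible because each genotype had 1 array of each type, and no array could be left out.

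Counts past 2-fold over all probe sets and genes moved by over 1.5 times as follows. On A, 75 were higher and 93 lower, against 154 and 55 with bacterial controls, 217 and 266 with the 30th percentile floor, 35 and 26 with the 70th, and 12 and 18 at 3-fold. On B, 125 were higher and 111 lower, against 334 and 55 with bacterial controls, 443 and 364 with the 30th percentile floor, 41 and 41 with the 70th, and 26 and 31 at 3-fold, and equal medians gave 170 lower. By gene, 95 were higher and 115 lower, against 210 and 68, 282 and 310, 42 and 40, and 16 and 31 in that order, and 23 and 22 without suffixed probe sets.

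Of the list medians, that of chemokines of other families was -0.73 with the 30th percentile floor, against -1.44 with the main floor. The inducers' was 0.15 without suffixed probe sets. The receptors' was 0.063 and -0.22 with the 30th and 70th percentile floors and -0.23 without suffixed probe sets. The cause of these shifts was not tested. Some medians near 0 changed sign: bacterial-control scaling put the transcription factors at 0.14 and the proteases at 0.23.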
